A study of Mus musculus with 72 samples.

Results

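The 14 colons of colitic mice given an antibody against the cytokine TWEAK were divided evenly into those with high and those with low inflammation, and the genes that separated them were described. The division used 1 value, the level of S100a8, which encodes a subunit of calprotectin, the protein that neutrophils carry in bulk and that is measured in stool as a sign of gut inflammation. Inside each of 2 experiments the anti-TWEAK arrays were ranked by the S100a8 probe set, and high and low mice were chosen by that rank, above and below the middle. This gave 7 high mice (4 in experiment 7 and 3 in experiment 10) and 7 low mice (4 in experiment 7 and 3 in experiment 10), 14 of the 72 arrays of the series. Because a measured level chose the mice, every difference between them is given as a description, without a test.

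All mice were wild-type Balb/c, and each array holds the total RNA of the colon of 1 mouse, labelled and measured on an Affymetrix 3 prime array. The 14 anti-TWEAK mice had received 10 mg/kg of the antibody mP2D10 and then rectal trinitrobenzene sulfonic acid (TNBS) at 70 µg per g body weight, and were killed on day 4. TNBS is a hapten given in ethanol that causes acute colitis. The groups outside the split that were used here are 15 mice with TNBS and 10 mg/kg of a control IgG2a directed at human CD20, 8 mice with TNBS and no further agent (untreated), and 8 naive mice, which were all in experiment 10. Mice given TNFR-Ig (12 arrays, 0.3 mg/kg, no antibody) or TNFR-Ig with anti-TWEAK (15 arrays) entered the fits that estimate the spread. The treatment label of 1 naive array contradicts its title, and the title was followed. The deposited values are log2 signals with a floor of 2.08, and the number of arrays limits their precision. Array medians lay between 4.60 and 4.77, and no array was left out. The 3 prime minus 5 prime difference of Actb, which grows as RNA degrades, was 0.931 to 1.15 in high mice and 1.00 to 1.23 in low mice, within the 0.931 to 1.50 of all arrays. In experiment 7 it was 0.931 to 1.125 in high mice and 1.00 to 1.074 in low mice. In experiment 10 it was 1.130 to 1.153 in high mice and 1.183 to 1.233 in low mice, without overlap. Its part in the differences between high and low mice was not tested. For the anti-TWEAK arrays, experiment and array run coincide and cannot be told apart. Nothing beyond the labels says that the mice of a group were independent of each other, for example in cage or litter.

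TWEAK, a relative of TNF, acts through the receptor Fn14, encoded by Tnfrsf12a, on epithelial, endothelial and stromal cells, and signals largely through NF-κB, the transcription factor family that drives many chemokine and cytokine genes. In acute TNBS colitis neutrophils and monocytes enter the damaged mucosa in large numbers, bring proteases and oxidants with them, and are drawn in by chemokines made by epithelium, stroma and the myeloid cells themselves. Type I interferon-stimulated genes form a separate antiviral programme, switched on through interferon-stimulated response elements, and a healthy gut expresses them at a steady level.

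The S100a8 levels show what the words high and low stand for. In experiment 7 the high mice had 14.86, 14.85, 14.76 and 14.71 log2 units and the low mice 14.61, 14.55, 12.77 and 11.45. In experiment 10 the high mice had 14.66, 14.22 and 13.01 and the low mice 12.88, 11.56 and 10.67. The dividing line therefore ran through a gap of only 0.099 in experiment 7 and 0.124 in experiment 10. Replicates 1 and 5 of experiment 7 were called low but lay only up to 0.30 below the highest high mouse, while replicates 6 and 7 stood far below them. In experiment 10 the third high mouse was nearer to the first low mouse than to the other high mice. Low does not mean uninflamed: the lowest of the 14 values, 10.67, was above the 9.07 of the highest naive mouse, and the naive median was 3.38. Untreated mice had 13.74 at the lowest, 14.73 at the median and 15.08 at the highest, so that the high mice of experiment 7 lay inside the untreated range. The third high mouse of experiment 10 (13.01) lay below that range, as did 5 of the 7 low mice. A low level of a cell type's genes in whole tissue can come from fewer cells of that type or from less RNA per cell, which cannot be told apart here.

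The promoters of 4 genes that differed between high and low mice are shown as examples of the motifs searched for. Each line gives the 150 bases before the RefSeq start on GRCm38.p6. Il6 and Cxcl1, a cytokine and a neutrophil chemokine that were higher in high mice, are shown for their NF-κB (kappa B) consensus, and Ifit1 and Ddx60, antiviral genes that were lower in high mice, for the core of the interferon-stimulated response element (ISRE), which reads GAAA, NN and GAAA without a gap, N being any base. Capitals mark the matches, on either strand. The pair of matches in Cxcl1 are the same near-palindromic bases read on both strands.
Il6 (chr5:30012964-30013113, + strand): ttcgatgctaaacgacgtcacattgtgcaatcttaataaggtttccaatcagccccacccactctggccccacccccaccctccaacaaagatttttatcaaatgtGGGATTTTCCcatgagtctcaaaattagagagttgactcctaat
Cxcl1 (chr5:90891095-90891244, + strand): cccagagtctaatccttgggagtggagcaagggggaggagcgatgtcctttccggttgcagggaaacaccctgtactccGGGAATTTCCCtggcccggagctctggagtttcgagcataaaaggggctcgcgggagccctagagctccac
Ifit1 (chr19:34640739-34640888, + strand): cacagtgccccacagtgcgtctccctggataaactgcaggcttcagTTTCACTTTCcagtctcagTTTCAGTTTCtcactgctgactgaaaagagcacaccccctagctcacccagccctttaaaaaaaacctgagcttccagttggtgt
Ddx60 (chr8:61927937-61928086, + strand): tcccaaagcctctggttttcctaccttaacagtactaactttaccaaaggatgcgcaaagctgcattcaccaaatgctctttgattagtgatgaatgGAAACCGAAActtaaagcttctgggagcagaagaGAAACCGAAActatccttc
Both strands of the full promoter windows, which reach from 250 bases before to 50 after the start, were searched for all genes with an entry. The kappa B consensus was found in 22 of 143 genes (15.4%) that were higher in high mice by at least 1 log2 unit, in 1 of 26 (3.8%) that were lower by that much, and in 1229 of 10082 (12.2%) of all genes tested. Among canonical NF-κB targets it was found in 13 of 23 (56.5%). The ISRE core was found in 15 of the 143 higher genes (10.5%), in 4 of the 26 lower genes (15.4%), in 8 of 13 type I interferon-stimulated genes (61.5%) and in 371 of the 10082 (3.7%). A match is a stretch of letters, not a shown binding site.

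Of 12534 genes with a measurable level, 179 were higher in high mice by at least 1 log2 unit with the same sign in both experiments (1.43% of those tested) and 36 were lower (0.287%), 1.72% in all. S100a8 is one of the 179. Of the other 178, 51 belong to the lists of neutrophil, macrophage, cytokine, chemokine, acute phase and protease genes used here, 8 to that of the exocrine pancreas, and 113 to none of the 39 lists. The largest difference was that of the neutrophil collagenase Mmp8. Of the 36 lower genes, 6 belong to the type I interferon-stimulated list and 28 to no list. The median difference over all genes was 0.00. Experiment 7 alone held 242 genes other than S100a8 higher by at least 1, of which 182 (75.2%) had the same sign in experiment 10, and 154 genes lower by at least 1, of which 77 (50%) had it, against 59.8% of all genes. Without the low replicates 6 and 7 of experiment 7 the counts were 91 higher and 19 lower, and without the low replicates 1 and 5 they were 274 higher and 93 lower.

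Mmp8, the collagenase stored in neutrophil granules, had 10.60, 10.28, 9.92 and 10.24 log2 units in the high mice of experiment 7, against 9.78, 9.45, 3.26 and 2.17 in the low mice. In experiment 10 Mmp8 had 9.75, 7.55 and 2.99 in high mice, against 3.48, 2.38 and 2.17 in low mice. The fitted difference of Mmp8 was 4.09 ± 1.38 log2 units (SE, n = 7 each). Low replicates 1 and 5 of experiment 7 sat with the high mice in Mmp8, and the third high mouse of experiment 10 sat with the low mice, so high and low mice overlapped in experiment 10. Il6, the cytokine that sets off the acute phase response, had 7.55, 9.20, 9.45 and 7.25 in the high mice of experiment 7, against 7.58, 7.17, 3.44 and 2.08 in the low mice, where the last value is the floor. In experiment 10 Il6 had 7.25, 7.47 and 4.28 in high mice, against 2.08, 2.58 and 2.08 in low mice. All 3 low mice of experiment 10 were thus at or near the floor for Il6, and the fitted difference, 3.64 ± 0.93, depends on where that floor lies. Ngp, a granule protein made by immature neutrophils, went apart mainly in experiment 7, with 10.16, 11.02, 10.58 and 8.87 in high mice against 9.12, 7.87, 2.08 and 2.08 in low mice. In experiment 10 only 1 high mouse had Ngp above the floor, at 5.92, and the difference was 1.28 there against 4.87 in experiment 7.

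Of the 12 genes with the largest positive difference, 3 separated high from low mice inside each experiment without overlap. Ptx3, a soluble pattern recognition protein made by stroma and myeloid cells, had 10.36, 11.12, 10.34 and 9.45 log2 units in the high mice of experiment 7, against 9.15, 9.39, 4.43 and 2.25 in the low mice. In experiment 10 Ptx3 had 8.90, 7.52 and 4.70 in high mice, against 4.40, 3.91 and 2.53 in low mice. The fitted difference of Ptx3 was 3.76 ± 1.14 (SE, n = 7 each), with 4.01 in experiment 7 and 3.43 in experiment 10, although high and low mice came within 0.30 of each other in experiment 10. Stfa2l1, a stefin A-like protease inhibitor expressed in mouse neutrophils, had 12.14, 12.80, 12.14 and 11.62 in the high mice of experiment 7, against 11.35, 11.47, 7.89 and 5.72 in the low mice. In experiment 10 Stfa2l1 had 11.31, 10.81 and 8.35 in high mice, against 7.38, 6.76 and 3.91 in low mice, and its fitted difference was 3.53 ± 0.98. Chil3, the chitinase-like protein Ym1 of alternatively activated macrophages and neutrophil precursors, had 12.54, 12.83, 12.87 and 12.38 in the high mice of experiment 7, against 12.03, 11.99, 8.60 and 4.49 in the low mice. In experiment 10 Chil3 had 11.67, 9.64 and 8.19 in high mice, against 8.08, 7.20 and 3.39 in low mice, with a fitted difference of 3.47 ± 1.22. In all 3 genes the pair of low mice next to the dividing line in experiment 7 came close to the high mice and the other pair lay far below.

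**Figure D1:**
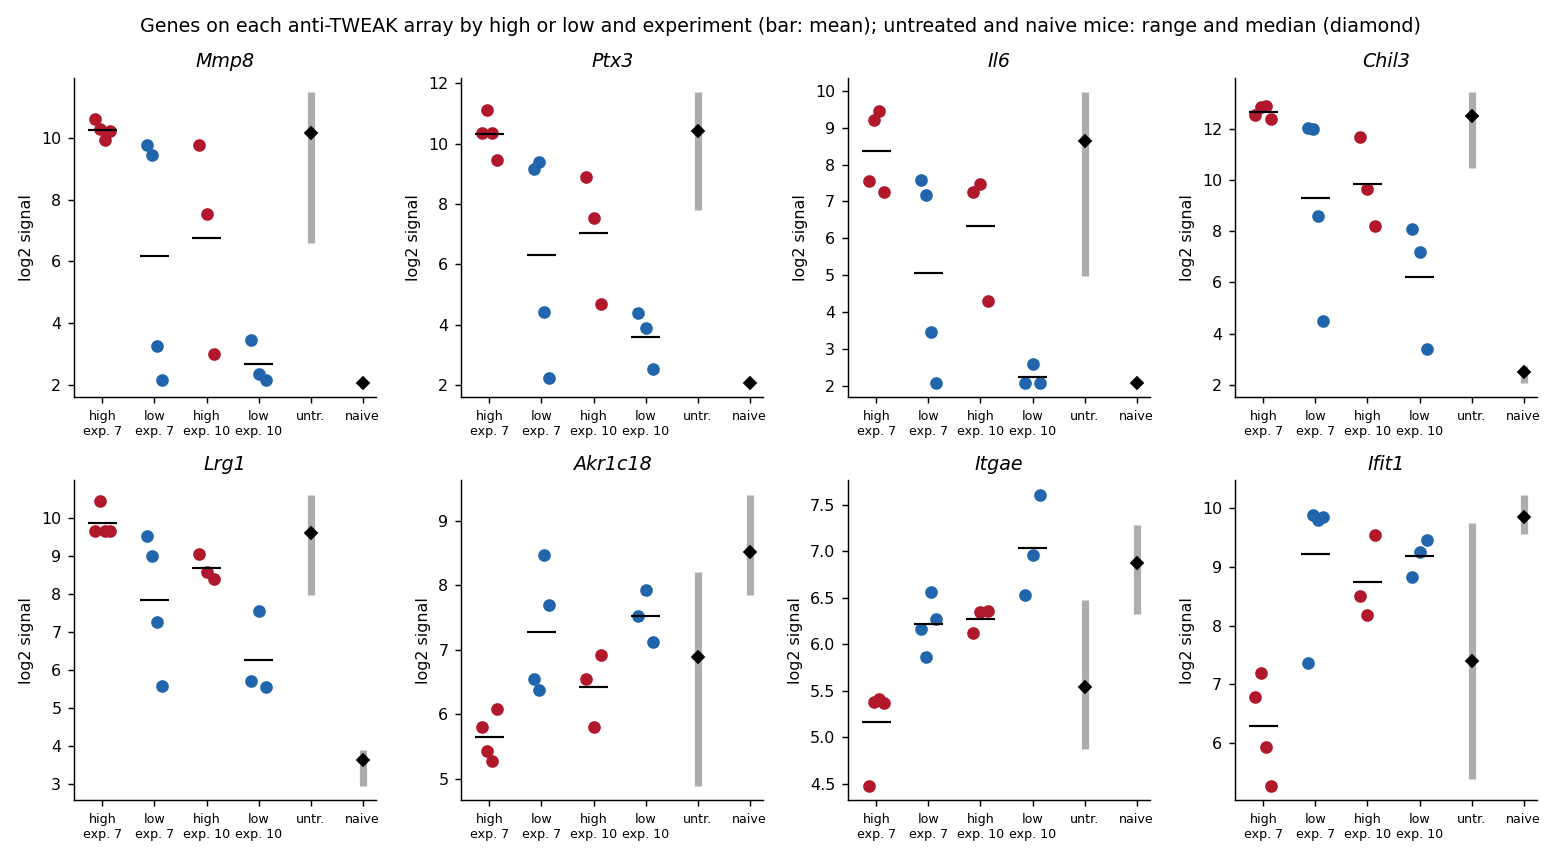
Log2 signal (vertical axis) of 8 genes on each of the 14 anti-TWEAK arrays, high mice in red and low mice in blue, by experiment, with the mean of each set as a bar. Grey bars give the range and diamonds the median of 8 untreated and 8 naive mice. The low mice of experiment 7 fall into an upper and a lower pair in Mmp8, Ptx3, Il6, Chil3 and Lrg1, Akr1c18 and Itgae run the other way, and Ifit1 is lower in all high than in all low mice of experiment 7, with 1 low mouse close to the high mice, and overlaps in experiment 10.

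Regardless of size, 37 genes were higher in high mice without any overlap in either experiment (0.295% of those tested), S100a8 among them, and 27 were lower (0.215%), 0.511% in all. Of these, 11 genes other than S100a8, 1 of them known only by a clone name, were also higher by at least 1, and 1 gene was also lower by at least 1. They were picked out after their values were seen. Beside Ptx3, Stfa2l1 and Chil3 they include Lrg1, an acute phase glycoprotein, Pilra, an inhibitory receptor of myeloid cells, Ncf4, a subunit of the phagocyte oxidase, Tnfaip6, a hyaluronan-binding protein induced by TNF, Inhba, which encodes the activin A subunit, the early response gene Ier3, and Slfn1. Lrg1 had 9.66, 10.43, 9.65 and 9.67 log2 units in the high mice of experiment 7 against 9.52, 9.0, 7.27 and 5.58 in the low mice, and 9.05, 8.57 and 8.39 in the high mice of experiment 10 against 5.71, 7.54 and 5.55 in the low mice. Its fitted difference was 2.18 ± 0.58. Inhba, at a low level throughout, lay between 3.01 and 4.44 in high mice and between 2.25 and 3.24 in low mice, with a difference of 1.25 ± 0.20. Tnfaip6 differed by 1.30 ± 0.24, with 1.30 in experiment 7 and 1.31 in experiment 10.

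The 1 gene that was lower on both counts was Akr1c18, the aldo-keto reductase that inactivates progesterone. Akr1c18 had 5.80, 5.44, 5.27 and 6.09 log2 units in the high mice of experiment 7, against 6.54, 6.38, 8.47 and 7.69 in the low mice, and 6.55, 5.80 and 6.92 in the high mice of experiment 10, against 7.53, 7.94 and 7.12 in the low mice. All 7 high mice and 5 of the 7 low mice lay below the lowest naive mouse (7.85) in Akr1c18. Itgae, the integrin chain CD103 that holds intraepithelial lymphocytes to the epithelium, had 4.48, 5.38, 5.41 and 5.38 in the high mice of experiment 7, against 6.16, 5.86, 6.57 and 6.27 in the low mice. In experiment 10 Itgae had 6.12, 6.35 and 6.36 in high mice, against 6.53, 6.96 and 7.60 in low mice. Its fitted difference was -0.93 ± 0.20, and it was the only measured T cell gene without overlap. All 9 measured T cell genes had a difference below 0, with a median of -0.32, and none reached 1.

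Neutrophil genes other than S100a8 made the largest group. Of 19 measured, 17 were higher in high mice by at least 1 and none lower, with a median difference of 2.46 over the list (2.29 in experiment 7 and 2.70 in experiment 10), against a median of 0.00 over all genes. The list holds markers that travel with S100a8, so this direction was fixed by how the mice were chosen. Beside Mmp8 and Ngp it includes Clec4e, the receptor Mincle, with a difference of 3.64 ± 1.22, and Hdc, the histamine-forming enzyme, which immature myeloid cells also express, with 3.41 ± 1.01. S100a9, the partner of S100a8 in calprotectin, differed by 1.36 ± 0.44. S100a9 had 15.26, 15.10, 15.07 and 15.11 in the high mice of experiment 7, against 15.00, 15.08, 13.62 and 12.48 in the low mice. In experiment 7 the neutrophil difference came from 1 pair of mice: without low replicates 6 and 7 the list's median there was 0.19, and without low replicates 1 and 5 it was 4.20. The summed picture per mouse shows the same pair: the mean of the neutrophil genes was 10.81, 10.69, 10.30 and 10.24 in the high mice of experiment 7, against 10.31, 9.99, 7.21 and 6.27 in the low mice. In experiment 10 that mean was 10.08, 9.31 and 7.93 in high mice, against 7.05, 6.82 and 5.55 in low mice. Every low mouse was above the naive range of 3.64 to 4.61.

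Monocyte and macrophage genes differed less. Of 26 measured, 7 were higher by at least 1 and none lower, and 25 had a difference above 0, with a median of 0.64. Without low replicates 6 and 7 of experiment 7, 3 of the 26 were higher by at least 1, and without low replicates 1 and 5, 12 were. Chil3 led them, followed by the scavenger receptor Marco at 2.38 ± 1.11, Arg1, the arginase of wound and tumour macrophages, at 1.63 ± 0.44, and the Fc receptor Fcgr4 at 1.23. Marco was near the floor in 3 low mice and 2 high mice of experiment 10, with values of 2.11 to 2.20, so its difference came mostly from experiment 7. There Marco had 7.21, 9.82, 7.18 and 6.84 in high mice, against 7.55, 7.05, 2.17 and 2.15 in low mice. Low replicates 6 and 7 were thus also near the floor, and low replicates 1 and 5 lay among the high mice. Other myeloid genes among the 12 largest were Olr1, the receptor for oxidised lipoprotein, at 3.10 ± 1.00, Ifitm6 at 3.20 ± 0.99, and Acod1, which makes itaconate in activated macrophages, at 2.96 ± 1.06. Acod1 had 12.32, 11.82, 11.39 and 11.86 in the high mice of experiment 7, against 11.70, 11.94, 8.88 and 6.49 in the low mice. Ankrd1, a stress-induced nuclear protein of muscle, endothelium and healing wounds, completed the 12 at 3.22 ± 0.98.

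Among the ligands, 7 of 11 cytokines and 9 of 19 chemokines were higher by at least 1 and none was lower by that much. After Il6, the cytokines with the largest differences were oncostatin M (Osm, 2.19 ± 0.53), Il1b (1.95 ± 0.59) and the RANK ligand Tnfsf11 (1.63 ± 0.68, 2.52 in experiment 7 and 0.43 in experiment 10). Il1b had 13.58, 12.57, 12.76 and 13.32 in the high mice of experiment 7, against 12.93, 13.01, 10.90 and 9.81 in the low mice, and 13.51, 13.65 and 12.90 in the high mice of experiment 10, against 10.85, 11.88 and 9.30 in the low mice. Its groups were apart in experiment 10 and overlapped in experiment 7. The chemokines that attract monocytes, Ccl7 (2.85 ± 0.74), Ccl3 (2.84 ± 0.98) and Ccl2 (2.20 ± 0.55), differed about as much as those that attract neutrophils, Cxcl1 (2.40 ± 0.62) and Cxcl3 (2.39 ± 0.87). Cxcl1 had 10.18, 10.41, 10.50 and 9.85 in the high mice of experiment 7, against 10.00, 10.02, 7.66 and 7.32 in the low mice, and 9.74, 10.64 and 9.02 in the high mice of experiment 10, against 6.37, 7.25 and 4.94 in the low mice. Without low replicates 6 and 7 of experiment 7, 3 of the 11 cytokines and 3 of the 19 chemokines were higher by at least 1.

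Matrix proteases and their inhibitors ran in 1 direction: all 21 measured had a difference above 0 and 8 reached 1, with a median of 0.83. Timp1, an inhibitor of metalloproteinases, had 12.14, 12.56, 12.03 and 11.55 in the high mice of experiment 7, against 11.55, 11.44, 9.10 and 7.73 in the low mice. In experiment 10 Timp1 had 11.59, 11.33 and 10.68 in high mice, against 8.71, 9.08 and 7.37 in low mice, and its fitted difference was 2.42 ± 0.59. The neutrophil proteases Adam8 and Mmp9 differed by 2.10 ± 0.65 and 1.91 ± 0.55. Mmp3, stromelysin 1 of fibroblasts, which was chosen after its values were seen, differed by 1.88 ± 0.53. Acute phase and complement genes also lay above 0 in all 18 measured, with 5 at 1 or more and a median of 0.57; without replicate 7 of experiment 7 alone, 3 were at 1 or more. Haptoglobin (Hp) was at 2.51 ± 0.82, orosomucoid (Orm1) at 2.25 ± 0.86, the serum amyloid Saa3 at 1.40 ± 0.44 and Socs3, the feedback inhibitor of Stat3 signalling, at 1.16 ± 0.37. All 16 endothelial genes measured lay above 0, and only Selp, the P-selectin on which leukocytes roll, reached 1, at 1.67 ± 0.52.

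**Figure D2:**
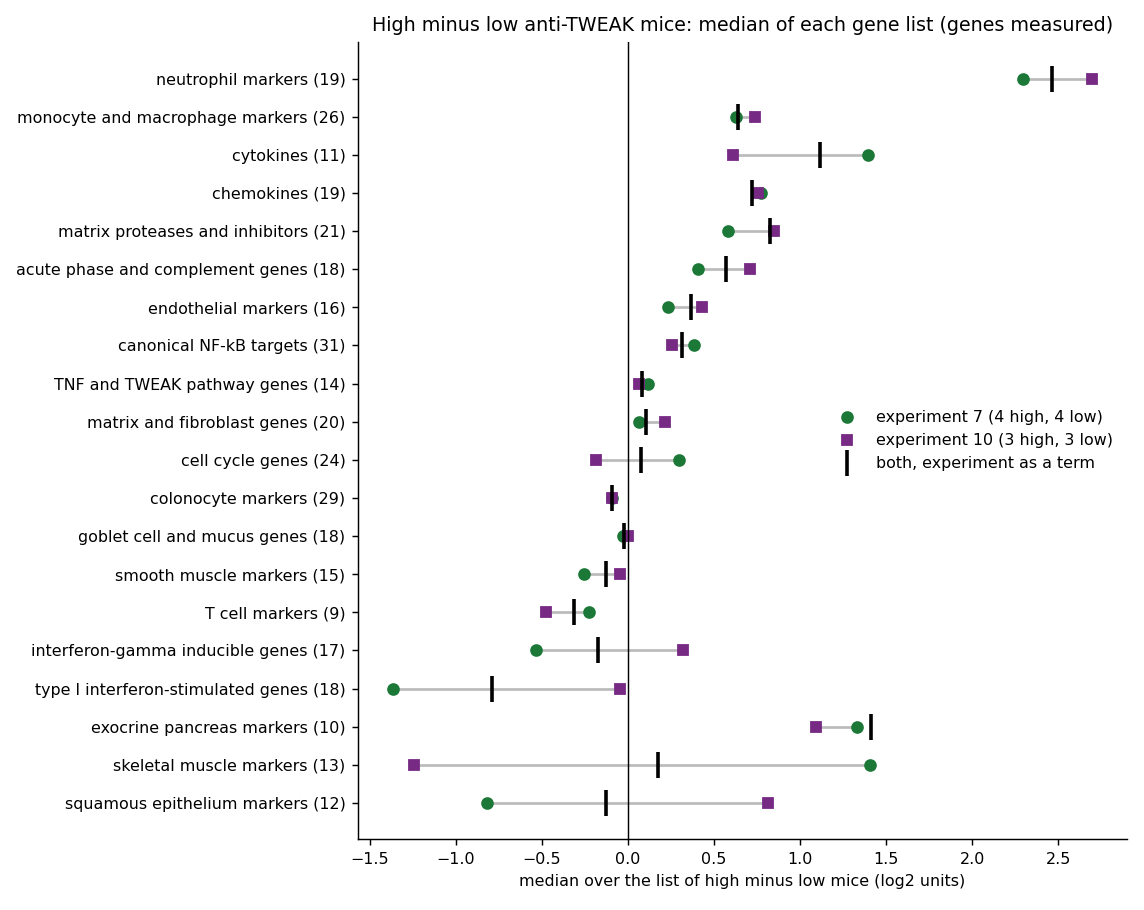
Median over each gene list of the difference between high and low mice (log2 units, horizontal axis), in experiment 7 (circles), experiment 10 (squares) and with both in 1 fit (bars); the number of genes measured stands in brackets. Neutrophil genes lie farthest to the right in both experiments, while type I interferon-stimulated genes lie at -1.36 in experiment 7 and -0.05 in experiment 10.

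The receptors and signal carriers of TWEAK and TNF differed little. None of 14 measured members of the pathway reached 1 in either direction, and their median was 0.08. Tnfrsf12a, the TWEAK receptor Fn14, had 9.0, 9.19, 9.09 and 8.93 log2 units in the high mice of experiment 7, against 8.79, 8.64, 8.38 and 8.17 in the low mice, and 8.66, 8.64 and 8.64 in the high mice of experiment 10, against 8.07, 8.26 and 8.76 in the low mice. Its fitted difference was 0.44 ± 0.12, and only 1 low mouse, in experiment 10, reached above the high mice of its experiment. The TNF receptors Tnfrsf1b and Tnfrsf1a differed by 0.43 ± 0.15 and 0.30 ± 0.13. The NF-κB subunits Rela, Relb and Nfkb2 differed by 0.11, 0.09 and -0.18, and the inhibitors Nfkbia and Tnfaip3 by 0.16 each. Their probe sets did not give 1 value: the dimmer probe set of Nfkb2 had the opposite sign (0.27), and the other 4 of Nfkbia gave 0.17 to 0.48. Of 31 canonical NF-κB targets measured, 9 were higher by at least 1 and none lower, with a median of 0.31. Those that led were Il6, Lcn2 (2.41 ± 0.76), Cxcl1 and Ccl2, which other lists here also hold. Actb differed by 0.02. Tnf itself was too dim to be tested, and Tnfsf12, which encodes TWEAK, was not among the genes tested.

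Type I interferon-stimulated genes were lower in high mice, mainly in experiment 7. All 18 measured had a difference below 0 and 6 of them reached -1, with a median of -1.36 in experiment 7, -0.05 in experiment 10 and -0.79 with both. When the mice were ranked by S100a9 in place of S100a8, which moved 2 arrays to the other side, none of the 18 reached -1 with the same sign in both experiments, and Ifit1 was at -0.73. Without low replicates 6 and 7 of experiment 7, 3 of the 18 reached -1. Ifit1, which binds viral RNA caps, had 6.78, 7.18, 5.93 and 5.27 in the high mice of experiment 7, against 7.36, 9.89, 9.80 and 9.85 in the low mice. In experiment 10 Ifit1 had 8.51, 8.18 and 9.54 in high mice, against 8.83, 9.25 and 9.45 in low mice, so high and low mice overlapped there. Ifit1 thus had a difference of -2.93 in experiment 7 and -0.44 in experiment 10. Usp18, which removes ISG15 from proteins and damps the interferon receptor, had 5.33, 5.77, 5.87 and 4.99 in the high mice of experiment 7, against 6.52, 9.65, 8.81 and 8.33 in the low mice. The antiviral helicase Ddx60 had 5.64, 5.44, 4.37 and 4.99 in the high mice of experiment 7, against 5.83, 8.67, 8.57 and 8.13 in the low mice. The fitted differences were -1.86 ± 0.59 for Ifit1, -1.85 ± 0.59 for Usp18, -1.78 ± 0.57 for Ddx60 and -1.26 ± 0.44 for Irf7, the master factor of the programme. The same 3 low mice of experiment 7 were high in each of these 3 genes, and they include replicate 5, whose neutrophil genes were at the level of the high mice, while replicate 1 was low in them. Per mouse, the mean of the 18 genes was 7.68, 7.82, 7.54 and 7.56 in the high mice of experiment 7, against 7.92, 9.50, 9.53 and 9.39 in the low mice. In experiment 10 it was 8.58, 8.77 and 9.47 in high mice, against 8.81, 9.20 and 9.19 in low mice. Untreated mice lay between 7.28 and 8.85 and naive mice between 8.96 and 9.46. Genes inducible by interferon-gamma turned with the experiment, with a median of -0.54 in experiment 7 and 0.32 in experiment 10, and none of 17 reached 1.

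**Figure D3:**
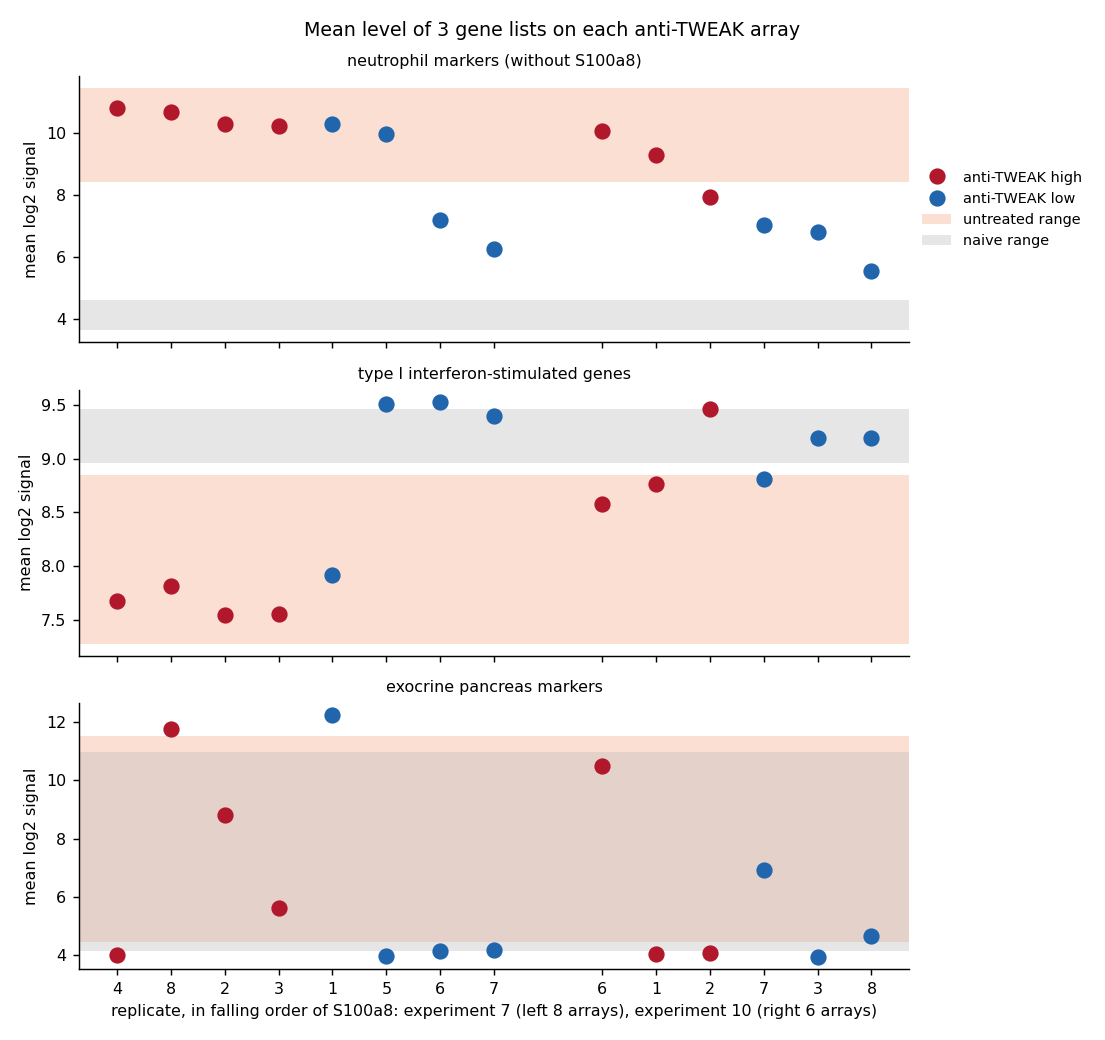
Mean log2 signal (vertical axes) of neutrophil, type I interferon-stimulated and exocrine pancreas genes on each anti-TWEAK array, with arrays in falling order of S100a8 inside each experiment; shaded bands give the range of untreated and of naive mice. The neutrophil mean falls with S100a8 in both experiments, the interferon mean is high on 3 of the 4 low arrays of experiment 7, and the pancreas mean exceeds 5 on 4 of the 7 high and 2 of the 7 low arrays.

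The tissue of the colon itself separated high from low mice little. Of 29 colonocyte genes measured, 25 had a difference below 0, but only Slc37a2, a sugar phosphate transporter, reached -1, and the median was -0.10. Slc37a2 had 7.31, 8.86, 6.97 and 8.68 in the high mice of experiment 7, against 9.23, 7.87, 10.80 and 10.18 in the low mice, and differed by -1.14 ± 0.53. Aqp8, the water channel of surface colonocytes, lay between 9.88 and 11.72 in high mice and between 9.89 and 11.99 in low mice, with a difference of -0.57 ± 0.37. Naive mice had at least 12.35 in Aqp8, so that all 14 anti-TWEAK mice lay below them. The median was -0.02 for 18 goblet cell genes, -0.13 for 15 smooth muscle genes and 0.08 for 24 cell cycle genes, and none of these reached 1. Olfm4, which marks crypt base cells in human colon and is also made by neutrophils, was higher by 1.03 ± 0.28.

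Genes of neighbouring tissues were present on some arrays and moved with the division in part. Of 10 exocrine pancreas genes measured, 8 were higher in high mice by at least 1, with a median of 1.41, and their mean exceeded 5 log2 units on 4 of 7 high arrays and 2 of 7 low arrays. The 8 rested on single mice: 0 were at least 1 apart without high replicate 6 of experiment 10, 2 without high replicate 8 of experiment 7, 3 without low replicate 3 of experiment 10, and 5 without low replicate 5 or 7 of experiment 7. The count was also 0 when the mice were ranked by S100a9 and for the difference of medians. Per mouse, that mean was 4.00, 11.77, 8.81 and 5.64 in the high mice of experiment 7, against 12.23, 3.99, 4.16 and 4.19 in the low mice. In experiment 10 it was 10.47, 4.05 and 4.08 in high mice, against 6.94, 3.95 and 4.66 in low mice. The chymotrypsinogen gene Ctrb1 differed by 2.24 ± 2.53, and naive mice covered 4.15 to 10.98 in the same mean. Without the 6 arrays above 5, 16 of the 19 neutrophil genes and 5 of the 18 interferon-stimulated genes were still at least 1 apart, and no pancreas gene was. Skeletal muscle genes had a median of 1.41 in experiment 7 and -1.24 in experiment 10. The 3 genes with the largest negative difference belong to muscle: Mylk4, a myosin light chain kinase (-2.90 ± 0.86), the calcium buffer Pvalb (-2.60 ± 1.26), and Casq1, the calcium store protein of fast fibres (-1.96 ± 0.88). Muscle genes as a set did not run that way. Of the 13 in the skeletal muscle list, 7 had a difference above 0 and 6 below, and Pvalb alone was counted as lower by at least 1. The myosin gene Myh1 was at 1.04, with 2.36 in experiment 7 and -0.73 in experiment 10. Mylk4 had 2.36, 2.32, 2.36 and 2.43 in the high mice of experiment 7, against 6.77, 2.08, 6.42 and 6.91 in the low mice, and was at 2.43 or below in every high mouse of that experiment. Squamous genes had medians of -0.82 in experiment 7 and 0.81 in experiment 10, and the squamous keratin Krt6b was at -1.72 ± 1.00. The part of pancreas, muscle and squamous RNA in the other differences was not tested.

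Whether the genes that separated high from low mice change with colitis itself was tested in mice outside the split. Untreated colitic mice were compared with naive mice on the 58 arrays outside the anti-TWEAK group, by limma across all genes with Benjamini-Hochberg adjustment. In that comparison 2790 genes rose (22.3% of those tested) and 3343 fell (26.7%), 48.9% in all. Of the 178 genes other than S100a8 that were higher in high mice by at least 1, 160 rose with colitis (89.9%) and none fell, with a median change of 3.65 log2 units. Of the 36 genes that were lower, 22 fell (61.1%) and none rose. The 11 genes that were both higher by at least 1 and free of overlap all rose. Ptx3 rose by 7.89 (adjusted p = 1.51e-09 by limma), Chil3 by 9.25 (2.81e-10), Mmp8 by 7.21 (6.13e-07), Il6 by 5.89 (4.49e-07) and Lrg1 by 5.67 (1.11e-12). All naive mice had Il6 and, within 0.1 log2 units, Ptx3 and Mmp8 at the floor, so that these changes are lower than a scale without a floor would give. Itgae fell by 1.00 (adjusted p = 0.000321 by limma), Akr1c18 by 2.01 (0.0155) and Ifit1 by 2.17 (5.90e-05). By list, 18 of 19 neutrophil genes, 26 of 26 macrophage genes, 13 of 19 chemokines, 19 of 21 proteases and 14 of 16 endothelial genes rose, while 16 of 18 interferon-stimulated genes and 24 of 29 colonocyte genes fell. Tnfrsf12a rose by 1.54 (adjusted p = 5.68e-06 by limma). None of the 10 pancreas genes rose and 1 fell, and Orm1, at 1.55, did not pass (adjusted p = 0.113 by limma).

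**Figure D4:**
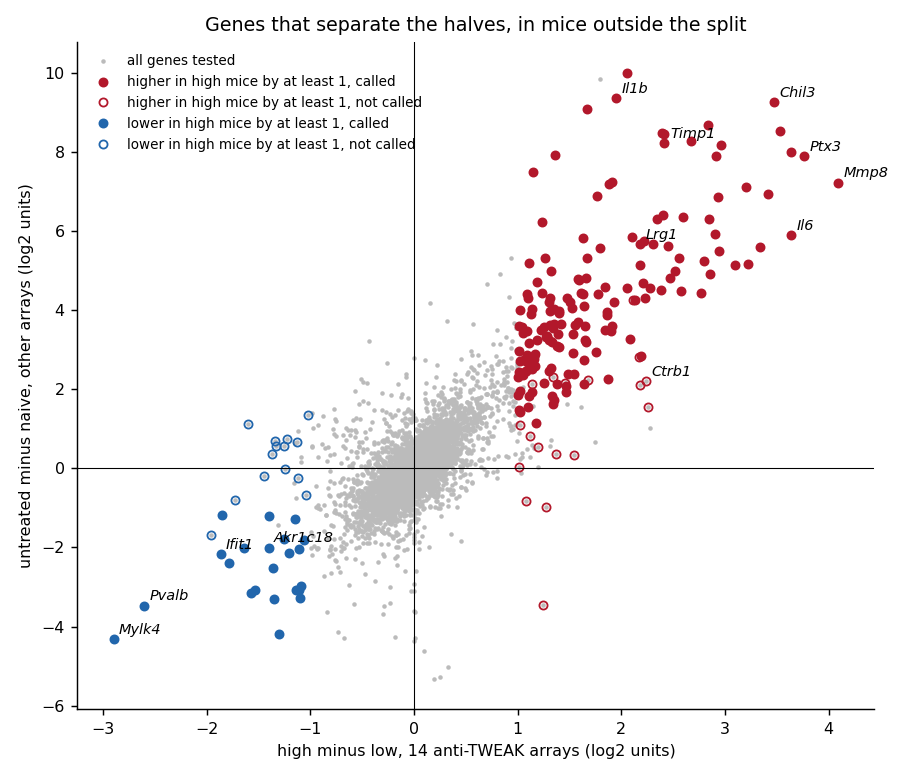
Difference between high and low anti-TWEAK mice (horizontal axis, log2 units) against the difference between untreated and naive mice (vertical axis, log2 units, other arrays) for 12534 genes in grey. Red and blue mark genes at least 1 log2 unit higher or lower in high mice, filled where limma called them between untreated and naive mice; 160 of 178 red and 22 of 36 blue points are filled.

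The levels in low mice show how far from naive they stayed. All 7 low mice were above every naive mouse in Ptx3, Stfa2l1, Chil3, Lrg1 and Timp1, and 5 of the 7 were below every untreated mouse in each of these genes. Mmp8 was above every naive mouse in 5 of the 7 low mice, and Il6 in 4 of 7. Those 5 low mice below the untreated range were replicates 6 and 7 of experiment 7 and all 3 of experiment 10. Of the high mice, none was below the untreated range in Lrg1 or Timp1, 1 was below it in Mmp8, Il6 and Stfa2l1, and 2 were below it in Ptx3 and Chil3. In Ifit1 all 7 high mice and 4 of the 7 low mice were below every naive mouse.

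By treatment label, in both experiments together, none of the genes at least 1 log2 unit apart between high and low mice was called by limma. Of these 214 genes, 10 had an unadjusted p under 0.05 by limma, for which no share over all genes was counted. The 214 were chosen for a wide spread among the anti-TWEAK mice, which form 1 side of this test. That choice itself makes a call less likely, so no conclusion is drawn from the lack of calls. Anti-TWEAK was compared with control antibody over all 72 arrays with experiment as a term, by limma with the same adjustment. Across all genes 143 rose (1.14%) and 208 fell (1.66%), 2.8% in all; after quantile normalization 184 rose and 162 fell. The median change of the 178 higher and the 36 lower genes with anti-TWEAK was -0.04 and -0.02. These pooled medians join opposite signs. The median of the higher genes was 0.34 in experiment 7 alone and -0.44 in experiment 10 alone, and that of the lower genes was -0.55 and 0.57. Ptx3, for example, differed by -0.51 between anti-TWEAK and control antibody (adjusted p = 0.796 by limma), Il6 by -0.63 (0.706), Mmp8 by 0.05 (0.989) and Ifit1 by 0.03 (0.980). Tnfrsf12a differed by -0.28 (adjusted p = 0.467 by limma). In experiment 10 alone, where limma called 14.9% of all genes, 5 of the 178 higher genes fell with anti-TWEAK and 4 of the 36 lower genes rose. These 5 were Cpb1, Grem1, Lrg1, Pla2g2a and Tnfsf9, and the 4 were Cpn1, Nmu and 2 genes known by clone names, all named after their values were seen. Lrg1 was at -1.59 there (adjusted p = 0.0481 by limma). In experiment 7 alone limma called no gene, with 1074 genes at an unadjusted p under 0.05. Several pooled values join differences of opposite sign: Ptx3 had 0.74 in experiment 7 and -2.11 in experiment 10, and Il6 had 0.17 and -1.69. The difference between the experiments did not pass for either (interaction adjusted p = 0.288 for Ptx3 and 0.481 for Il6 by limma). A p above the threshold does not show that the groups are alike.

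Control-antibody mice were divided by S100a8 in the same way, 7 high and 7 low, with the middle mouse of experiment 10 left out. In them 124 genes were higher in high mice by at least 1 with the same sign in both experiments (0.989%) and 73 lower (0.582%). Of the 178 genes that were higher under anti-TWEAK, 81 (45.5%) were also higher by at least 1 under control antibody, which is 65.3% of the 124. Another 10 were lower by that much. In all, 162 of the 178 had the same sign, against 7647 of all 12534 genes. Both splits were made by S100a8, so agreement in genes that travel with it was fixed by that choice. The median difference of the 178 genes was 1.52 under anti-TWEAK and 0.92 under control antibody. Of the 36 lower genes, 8 (22.2%) were also lower by at least 1. Mmp8 differed by 4.09 under anti-TWEAK and 3.56 under control antibody, Il6 by 3.64 and 1.72, Ptx3 by 3.76 and 2.17, and Akr1c18 by -1.40 and -1.39. The pooled values under control antibody join unlike experiments. There Mmp8 differed by 2.50 in experiment 7 and 4.97 in experiment 10, Il6 by 0.27 and 3.65, and Ptx3 by 1.51 and 3.06. Under anti-TWEAK these were 4.09 and 4.09 for Mmp8, 3.30 and 4.09 for Il6, and 4.01 and 3.43 for Ptx3. Lrg1 differed by 2.18 under anti-TWEAK and by -0.31 under control antibody, and the pancreas genes had a median of 1.41 and -1.01. The S100a8 values that were divided lay at 10.67 to 14.86 under anti-TWEAK and at 11.80 to 14.96 under control antibody. In experiment 7 they lay at 11.45 to 14.86 and at 13.78 to 14.96, and in experiment 10 at 10.67 to 14.66 and at 11.80 to 14.25. The dividing line of the control-antibody mice of experiment 7 ran between 14.28 and 14.24. The difference between both splits was not tested.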

How the data were processed

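Expression was measured on 72 arrays, 1 per mouse colon. The deposited series table gives 1 log2 value per probe set and array. The log2 scale was inferred from the deposited values, which start at a floor of 2.08. Per the submitters' processing notes the authors used RMA, GCRMA, R 2.11.1 and limma 3.4.5; the sources used here do not say which step produced the deposited values. No per-array depth exists for arrays, and 37.5% of values lay within 0.1 of the floor.

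Of 45101 probe sets, 34945 carried 1 gene symbol, 932 several and 9160 none, and 64 were controls. Symbols were updated by Entrez identifier (99.4% matched). For each of 18193 genes the probe set of highest mean was used, and genes below the 40th percentile of means (2.42) were left out, which left 12534.

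High minus low was the coefficient of a linear model with experiment as a term (limma 3.58.1, R 4.3.3), given without a test. A gene was counted when it was at least 1 log2 unit apart with the same sign in both experiments. Separately, genes without overlap between high and low mice inside each experiment were counted. Untreated against naive mice (58 arrays outside the anti-TWEAK group) and anti-TWEAK against control antibody (72 arrays) were tested with limma, two-sided, at a Benjamini-Hochberg adjusted p under 0.05. The methods were tested on simulated data. Alternatives tried were other normalization, filters, rankings, minimum differences, single experiments, a replicate block and leaving out arrays.

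The split, the gene lists and the rule for named genes were chosen with earlier results of these data known. Among genes at least 1 log2 unit apart, the rule names the 12 largest positive and 10 largest negative differences, up to 4 members of each list, and the pathway genes. Other genes were picked after seeing their values, as stated beside them. Same-numbered arrays of different groups did not deviate together throughout, so the numbers were not treated as pairs. The most pairs correlated above 0.1 between anti-TWEAK and control antibody in experiment 7, 4 of 8, with r from -0.358 to 0.475. Promoters are RefSeq sequences on GRCm38.p6. Python 3.11.15 with matplotlib 3.10.9 drew the figures.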

Additional observations from a re-analysis of the deposited data

Results flagged for a closer look

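Values that stood apart from the other high or low mice were looked for with Dixon's criterion, which flags about 1 in 20 groups by chance. Among high mice, the third mouse of experiment 10 was apart as the lowest in S100a9 (14.18), Mmp8 (2.99) and Il6 (4.28). Among low mice, replicate 1 of experiment 7 was apart as the lowest in Ifit1 (7.36) and Irf7 (6.51), and as the highest in the mean of the exocrine pancreas genes (12.23). For 215 genes the effect of anti-TWEAK against control antibody differed between the experiments, by an interaction term in limma at an adjusted p under 0.05, which is 1.72% of the genes tested. No explanation of these values was tested.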

How the results depend on the processing

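The count of genes at least 1 log2 unit apart between high and low mice, 215 in all 14 arrays, was 397 in experiment 7 alone, 407 without the arrays on either side of the dividing line, 473 with the arrays of both experiments ranked together and 54 at a minimum difference of 2 log2 units. Without low replicates 6 and 7 of experiment 7 it was 110 and without low replicates 1 and 5 it was 367, both chosen after seeing the data. Leaving out 1 array at a time gave 155 to 282. Ranking by S100a9 in place of S100a8 gave 226, of which 139 were higher and 87 lower, against 179 and 36 in the main result. With the other neutrophil genes as the ranking it was 252, 222 higher and 30 lower. In each case 2 arrays changed sides. The count without overlap, 64, was 1027 without the arrays at the dividing line, 108 without low replicates 6 and 7, 998 without low replicates 1 and 5, and 1788 without the 6 arrays with pancreas genes above 5; fewer arrays leave less room for overlap. It was 68 to 340 when 1 array was left out, and over 1.5 times the main count without replicates 1 (340), 2 (117), 3 (145) or 5 (131) of experiment 7 or replicate 2 of experiment 10 (117). The control-antibody split gave 141 to 238 genes, against 197 in all. Without the arrays with pancreas genes, the difference of Ctrb1 was -0.041.

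Untreated against naive mice gave 6133 calls, 5754 to 6268 without 1 array and 10447 over every probe set. Anti-TWEAK against control antibody gave 351 calls, but 754 over every probe set, 203 without the experiment term, 1873 in experiment 10 alone, 903 with array weights and 0 by limma in experiment 7 alone, where 1074 genes had an unadjusted p under 0.05. Leaving out 1 array gave 189 to 477, and under 1 in 1.5 of the main count without replicates 4 (189), 5 (214) or 7 (208) of the control antibody or replicates 6 (214) or 7 (221) of anti-TWEAK in experiment 10. With the replicate number as a block, the comparisons gave 5285 and 215 calls. The cause of these changes was not tested where the setting does not itself remove genes or arrays. Of 1748 values of single genes under other settings, 1718 kept their direction and their side of the threshold or stayed within their spread. Part of this was fixed in advance, since dropping the filter or the experiment term cannot change a gene's difference between high and low mice. Of 270 counts over gene lists, 228 stayed within 1.5 times. Ranking by S100a9 gave 4 cytokines in place of 7.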

Other observations

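Single members of other lists were also higher in high mice. Alox5ap, which presents arachidonic acid to 5-lipoxygenase, differed by 1.84 ± 0.52 log2 units between high and low mice (SE, n = 7 each) and rose by 4.59 between untreated and naive mice (adjusted p = 4.00e-12 by limma). Slc16a3, the lactate exporter Mct4, differed by 1.41 ± 0.34 and rose by 3.65 (adjusted p = 6.84e-10 by limma). By the probe sets used, each was the only member of its list at 1 or more, of 10 prostaglandin and leukotriene genes and of 18 glycolysis and hypoxia genes. In the first list Ptgs2 fell just short at 0.96, and its dimmer probe set gave 3.39. In the second Pfkfb3 was at 0.98, without overlap between high and low mice in either experiment. The alarmin Il33 differed by 1.14 ± 0.34 and rose by 2.50 (adjusted p = 1.12e-09 by limma). The B cell chemokine Cxcl13 differed by 1.09 ± 0.47, with 1.54 in experiment 7 and 0.50 in experiment 10. The 19 respiratory chain genes measured lay between -0.03 and 0.06, with a median of 0.01.

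Among the genes at least 1 log2 unit lower in high mice, C1qtnf3, a C1q-related secreted protein, differed by -1.57 ± 0.54 and fell by 3.16 between untreated and naive mice (adjusted p = 6.20e-08 by limma). The cardiac actin Actc1 differed by -1.64 ± 0.62 and fell by 2.01 (adjusted p = 0.00588 by limma). Fads2b differed by -1.60 ± 1.08 and had a change of 1.13 with colitis that did not pass (adjusted p = 0.432 by limma).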
